A study of Homo sapiens with 3 samples.

Results

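The aryl hydrocarbon receptor AHR, its partners and its best known target genes were followed in the T47D line, estrogen receptor-positive human breast cancer cells. The members were 9 genes: CYP1A1, CYP1A2, CYP1B1, AHR, AHRR, ARNT, TIPARP, ALDH3A1 and NQO1. They were read by 21 probe sets annotated to exactly 1 of these symbols, out of 41091 single-gene probe sets other than controls and 54675 probe sets in all. The genes were chosen with these arrays in view, CYP1A1 because its value was highest on the ERα17p array. All differences among the 3 arrays are therefore given as a description.

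Gene expression was measured on 3 Affymetrix HG-U133 Plus 2 arrays, 1 for each group. Cells stood for 4 h in medium whose serum (10%) had been stripped of hormones, and were then treated for 3 h. The ERα17p cells received the peptide ERα17p at 1 µM, the estradiol cells received 17β-estradiol at 1 µM, and the vehicle cells received ethanol at 0.1%. Estradiol is the natural ligand of the estrogen receptor, and ERα17p is a synthetic peptide copied from a stretch of that receptor. The labels give an ethanol share for the vehicle cells only, and all 3 groups share the same cell line, serum and time. With 1 array per group the error between cultures could not be estimated, and no test could be run.

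AHR is a transcription factor that waits in the cytoplasm with the chaperone HSP90 and enters the nucleus when it binds a planar aromatic ligand such as dioxin or a tryptophan product. There it pairs with ARNT and binds a short DNA element with the core GCGTG. CYP1A1, CYP1A2 and CYP1B1, the P450 enzymes that oxidise aromatic compounds, are its classical targets. AHRR and TIPARP are targets that feed back to damp the receptor, and ALDH3A1 and NQO1 are detoxifying enzymes of the same gene battery. In breast cells CYP1A1 and CYP1B1 also hydroxylate estradiol, and AHR and estrogen receptor α are known to influence each other at target genes.

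The promoters of 7 of the 9 members were found in RefSeq (GRCh38.p14), as windows of 300 bases that run from 250 bases before the start of transcription to 50 bases after it. The table did not match CYP1B1 or ALDH3A1. The windows of CYP1A1, AHR and AHRR are printed because these genes had the same order over the 3 arrays, and that of CYP1A2 because this close relative of CYP1A1 did not. Letters in capitals mark the core GCGTG or its reverse complement CACGC.
CYP1A1 (chr15:74725479-74725778, minus strand): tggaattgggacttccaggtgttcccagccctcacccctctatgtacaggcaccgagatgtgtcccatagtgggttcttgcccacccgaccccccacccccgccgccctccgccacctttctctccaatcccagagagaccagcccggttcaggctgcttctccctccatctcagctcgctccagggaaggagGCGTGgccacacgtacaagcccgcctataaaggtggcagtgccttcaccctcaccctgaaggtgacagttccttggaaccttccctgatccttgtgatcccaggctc
CYP1A2 (chr15:74748595-74748894, plus strand): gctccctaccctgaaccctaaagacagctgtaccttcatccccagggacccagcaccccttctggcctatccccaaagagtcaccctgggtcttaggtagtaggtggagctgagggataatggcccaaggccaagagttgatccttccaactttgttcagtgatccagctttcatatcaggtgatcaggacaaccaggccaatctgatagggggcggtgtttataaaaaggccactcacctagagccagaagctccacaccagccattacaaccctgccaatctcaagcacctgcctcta
AHR (chr7:17298402-17298701, plus strand): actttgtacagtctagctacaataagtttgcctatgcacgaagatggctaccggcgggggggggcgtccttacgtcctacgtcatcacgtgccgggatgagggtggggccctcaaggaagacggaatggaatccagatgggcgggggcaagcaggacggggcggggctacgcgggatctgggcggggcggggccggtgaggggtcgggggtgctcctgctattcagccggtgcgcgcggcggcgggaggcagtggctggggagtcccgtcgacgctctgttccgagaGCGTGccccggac
AHRR (chr5:321464-321763, plus strand): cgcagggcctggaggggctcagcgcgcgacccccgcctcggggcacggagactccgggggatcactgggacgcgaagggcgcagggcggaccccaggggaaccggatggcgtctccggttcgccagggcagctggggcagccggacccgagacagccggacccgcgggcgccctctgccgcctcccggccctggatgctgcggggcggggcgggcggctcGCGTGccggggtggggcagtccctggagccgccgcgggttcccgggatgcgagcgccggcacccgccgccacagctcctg
The CYP1A1 window held 1 core, which began 57 bases before the start, and the CYP1A2 window held 0. The AHR window held 1 core, beginning at base 38 of the transcript. The printed AHRR window, 1 of 2 listed for the gene, held 1 core that was part of the longer form TNGCGTG and began 30 bases before the start, and the other window held 2 cores. A core on either strand was present in 36.5% of 35116 promoter windows, and TNGCGTG in 5.51%. The NQO1 window also held 1 core within TNGCGTG, 1 of 3 TIPARP windows held 2 cores, and the ARNT window held 0. The consensus estrogen response element, a palindrome with 3 free bases at its centre, was in 0 member windows and in 0.057% of all windows. The antioxidant element core TGACNNNGC, bound by NRF2, was in the ARNT window alone among the members, and in 13.3% of all windows. Matches on both strands were counted, and TNGCGTG contains GCGTG. These matches describe letters within 300 bases only.

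The vehicle array differed from the 2 treated ones in its spread and controls, which touches every comparison with it. The deposited values are relative to a baseline per probe set that is not stated. Around it, the SD over single-gene probe sets was 0.165 on the ERα17p array and 0.157 on the estradiol array, against 0.446 on the vehicle array. Controls for ribosomal 18S RNA exceeded the vehicle array by 1.76 ± 0.39 (SD, n = 3 probe sets) with ERα17p and by 1.87 ± 0.34 with estradiol. The 3′ less 5′ difference of ACTB fell by 0.69 with ERα17p and by 0.81 with estradiol relative to vehicle. The part of these array differences in the results below was not tested. Between ERα17p and estradiol the same 2 measures differed by −0.12 ± 0.11 and 0.12. Because no absolute level is kept, it could not be checked whether luminal breast markers are present or a member is expressed at all. The 10 luminal markers listed differed from vehicle by −0.22 to 0.89 with ERα17p (median 0.12) and by −0.16 to 1.44 with estradiol (median 0.08), with PGR the highest in both. Of 8 markers of other cell types 7 were measured, at −0.44 to 0.42 with ERα17p (median 0.03) and −0.63 to 0.53 with estradiol (median −0.01). In bulk RNA, fewer cells of a type and less RNA per cell cannot be told apart.

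CYP1A1, CYP1B1, AHR and AHRR all stood highest on the ERα17p array, next on the estradiol array and lowest on the vehicle array. Of the 21 member probe sets, 9 had this order (42.9%), and 21.5% of all single-gene probe sets did. These 9 were the single sets of CYP1A1, AHR and AHRR, all 4 sets of CYP1B1 and 2 of the 7 sets of ARNT. The remaining member probe sets were spread over the other orders, with 1 to 3 in each. The members were chosen with these arrays in view, and several sets read the same gene. Nothing is therefore read from the 42.9% beside the 21.5%.

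**Figure D1:**
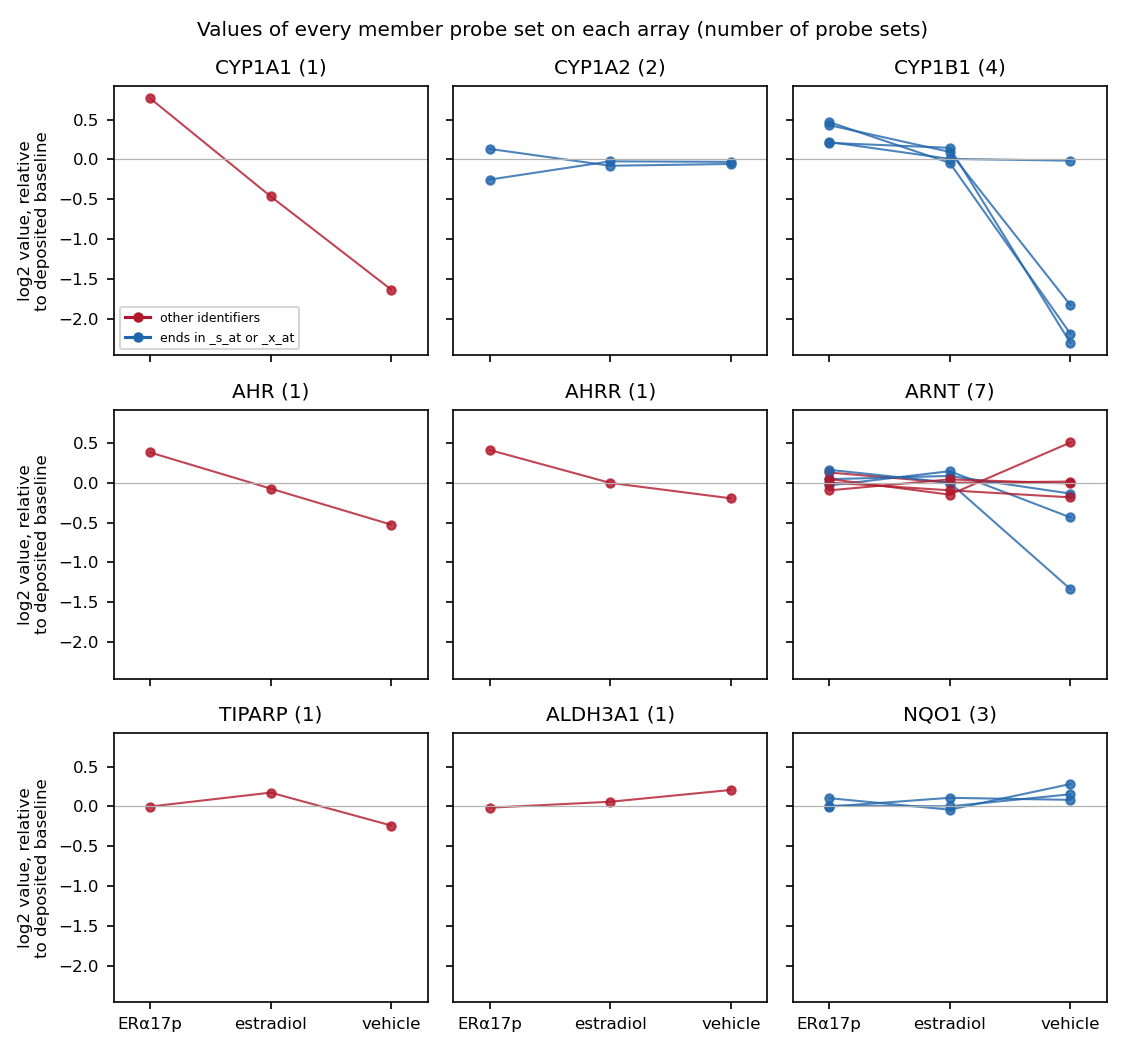
Deposited log2 value (y axis, relative to an unstated baseline) of each member probe set on the ERα17p, estradiol and vehicle arrays (x axis), 1 panel a gene and 1 line a probe set, with 1 array per group. CYP1A1 stands at 0.77 on the ERα17p array, −0.47 on the estradiol array and −1.64 on the vehicle array, and 3 of 4 CYP1B1 sets are low on the vehicle array alone.

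Among the P450 enzymes, CYP1A1 separated all 3 arrays. Its single probe set (205749_at) had a log2 value of 0.77 on the ERα17p array, −0.47 on the estradiol array and −1.64 on the vehicle array. The log2 difference was 2.41 for ERα17p minus vehicle (5.30-fold) and 1.17 for estradiol minus vehicle (2.25-fold). For ERα17p minus estradiol it was 1.23 (2.35-fold). The steps from vehicle to estradiol and from estradiol to ERα17p were thus nearly equal on the log2 scale. Of 19775 genes, CYP1A1 was the one of rank 4 from the top in ERα17p minus vehicle, rank 176 in estradiol minus vehicle and rank 6 in ERα17p minus estradiol. The last of these ranks does not use the vehicle array. CYP1A1 was chosen because its value was highest on the ERα17p array, so nothing is read from these ranks.

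CYP1B1, the main estradiol 4-hydroxylase, stood well above vehicle in both treatments by 3 of its 4 probe sets and differed much less between the treatments. The set 202436_s_at had log2 values of 0.21 on the ERα17p array, 0.14 on the estradiol array and −2.31 on the vehicle array. The set 202437_s_at stood at 0.47, −0.04 and −2.19 in the same order of arrays, and 202435_s_at at 0.43, 0.09 and −1.83. The set 202434_s_at behaved otherwise, at 0.22 with ERα17p, 0.01 with estradiol and −0.02 with vehicle. Its 3 companions differed by 2.26 to 2.66 for ERα17p minus vehicle and by 1.93 to 2.45 for estradiol minus vehicle, while this set differed by 0.24 and 0.02. The gene means were 1.92 ± 1.13 and 1.64 ± 1.10 (SD, n = 4 probe sets). For ERα17p minus estradiol all 4 sets lay above 0, between 0.06 and 0.51, with a mean of 0.28 ± 0.19. All 4 identifiers end in _s_at, and sets with this ending or _x_at were treated here as open to cross-hybridisation.

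CYP1A2, the hepatic member of the family, showed neither pattern. Its set 207608_x_at had log2 values of 0.13 with ERα17p, −0.08 with estradiol and −0.06 with vehicle, and 207609_s_at had −0.25, −0.03 and −0.03. The 2 sets moved in opposite directions on the ERα17p array, by 0.19 and −0.22 relative to vehicle, and the gene mean was −0.02 ± 0.29 (SD, n = 2). With estradiol the mean difference from vehicle was −0.01 ± 0.02.

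The receptor gene itself followed the order of CYP1A1 with smaller steps. The AHR probe set 202820_at had log2 values of 0.38 on the ERα17p array, −0.07 on the estradiol array and −0.53 on the vehicle array. The differences from vehicle were 0.91 for ERα17p (1.88-fold) and 0.45 for estradiol (1.37-fold), and ERα17p exceeded estradiol by 0.45 (1.37-fold). AHR was at percentile 98.5 of all genes for ERα17p minus estradiol.

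AHRR, the repressor that competes with AHR for ARNT, had log2 values of 0.41 with ERα17p, 0.00 with estradiol and −0.19 with vehicle (229354_at). The differences from vehicle were 0.61 for ERα17p and 0.19 for estradiol, and ERα17p exceeded estradiol by 0.41 (1.33-fold), at percentile 97.8 of all genes. For AHRR, unlike CYP1B1, the step between the 2 treated arrays was larger than that from vehicle to estradiol.

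ARNT, the shared partner of AHR and the hypoxia factors, was read by 7 probe sets that disagreed. The set 231016_s_at had log2 values of 0.16 with ERα17p, 0.00 with estradiol and −1.33 with vehicle, a difference of 1.499 for ERα17p minus vehicle and 1.34 for estradiol minus vehicle. In the other direction, 230619_at stood at 0.05 with ERα17p, −0.15 with estradiol and 0.51 with vehicle, with differences of −0.46 and −0.66. The other 5 sets lay between −0.09 and 0.40 for ERα17p minus vehicle and between −0.01 and 0.58 for estradiol minus vehicle. The gene means were 0.26 ± 0.61 and 0.23 ± 0.61 (SD, n = 7), smaller than this spread. ERα17p minus estradiol was 0.03 ± 0.15.

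TIPARP, a mono-ADP-ribosyltransferase that marks AHR for degradation, was highest on the estradiol array. Its set 212665_at had log2 values of 0.00 with ERα17p, 0.17 with estradiol and −0.24 with vehicle. The difference from vehicle was 0.24 for ERα17p and 0.41 for estradiol, and ERα17p minus estradiol was −0.17. CYP1A1 and TIPARP, both known as early targets of the receptor, stood in opposite order on the treated arrays. The TIPARP difference was small, from 1 probe set. Over genes with several probe sets, the median SD between sets was 0.16 for ERα17p minus estradiol.

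ALDH3A1, an aldehyde dehydrogenase, had log2 values of −0.02 with ERα17p, 0.06 with estradiol and 0.21 with vehicle (205623_at), and differed from vehicle by −0.22 with ERα17p and −0.15 with estradiol. NQO1, a quinone reductase that both AHR and NRF2 induce, differed from vehicle by −0.13 ± 0.05 with ERα17p and −0.15 ± 0.17 with estradiol (SD, n = 3 probe sets). The values of its sets lay between 0.00 and 0.10 on the ERα17p array, between −0.04 and 0.11 on the estradiol array and between 0.08 and 0.28 on the vehicle array. Neither enzyme had a difference from vehicle of 1.5-fold in either treatment.

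Counted by size, 5 of the 21 member probe sets were at least 2-fold higher with ERα17p than with vehicle, where 3.99% of all single-gene probe sets were. These were 205749_at of CYP1A1, 3 sets of CYP1B1 and 231016_s_at of ARNT. The same 5 were at least 2-fold higher with estradiol than with vehicle (3.79% of all). Of the 21 sets 0 were 2-fold lower in either comparison, beside 2.66% of all probe sets for ERα17p and 2.34% for estradiol. Between ERα17p and estradiol, CYP1A1 alone of the 21 sets was 2-fold higher, beside 0.073% of all, and 0 were 2-fold lower, beside 0.129%. Since the members were chosen on these contrasts, nothing is read from these shares. Just below 2-fold stood AHR at 0.91 for ERα17p minus vehicle, and just above it 231016_s_at of ARNT at 1.499. For estradiol minus vehicle the closest were 230619_at of ARNT at −0.66 and CYP1A1 at 1.17. For ERα17p minus estradiol they were 202437_s_at of CYP1B1 at 0.51 and CYP1A1 at 1.23.

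**Figure D2:**
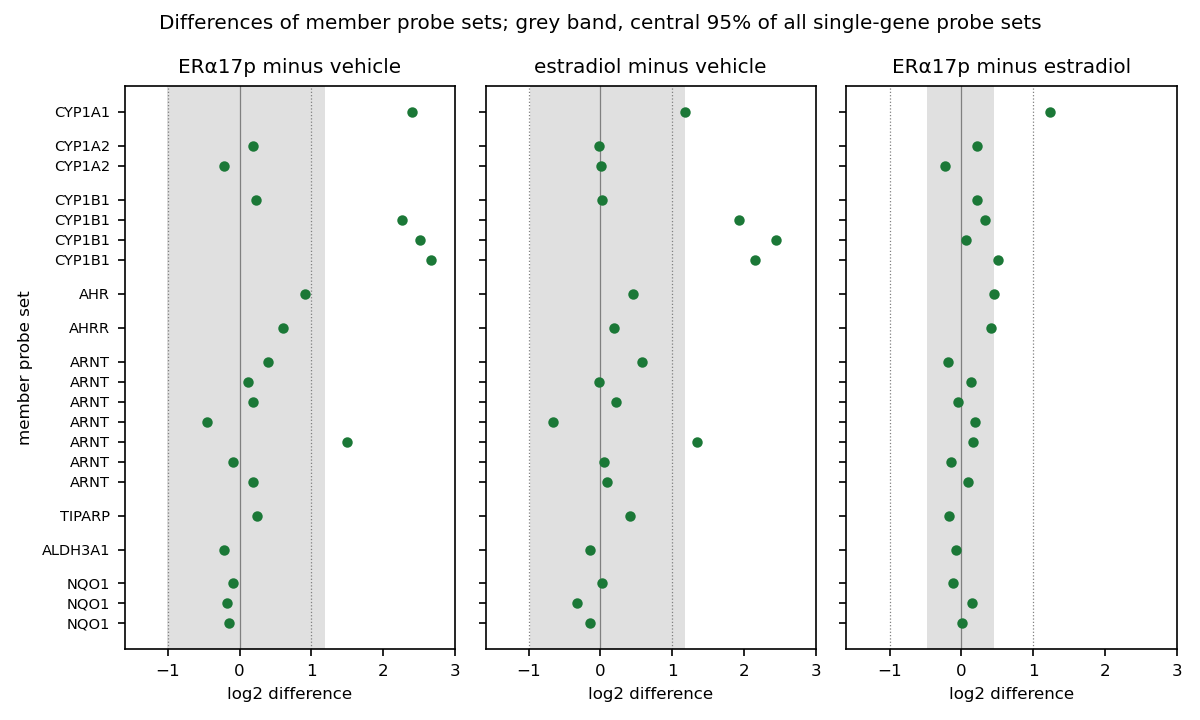
Log2 difference (x axis) of each member probe set (y axis) for ERα17p minus vehicle, estradiol minus vehicle and ERα17p minus estradiol, 1 array per group, with dotted lines at 2-fold and a grey band for the central 95% of all single-gene probe sets. CYP1A1 lies outside the band for ERα17p minus vehicle, at 2.41, and for ERα17p minus estradiol, at 1.23, and NQO1 and ALDH3A1 lie inside all bands.

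At 1.5-fold, 4 of the 9 member genes (means of their probe sets) were higher with ERα17p than with vehicle, CYP1A1, CYP1B1, AHR and AHRR, beside 6.88% of all genes. With estradiol 2 were, CYP1A1 and CYP1B1, beside 6.48%. The median over the 9 genes was 0.26 for ERα17p minus vehicle, 0.23 for estradiol minus vehicle and 0.03 for ERα17p minus estradiol, with medians over all genes of 0.00, 0.00 and 0.01. Both comparisons with vehicle share the vehicle array, so their values are not independent of each other. As for the 2-fold counts, the members were chosen on these contrasts, so nothing is read from these shares and medians.

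Set among the 47 P450 genes on the arrays, CYP1A1 ranked first for ERα17p minus vehicle and CYP1B1 next, and these were the only P450 genes at least 2-fold higher, as were 1.9% of all genes. The gene that followed, CYP39A1, an oxysterol hydroxylase, stood at 0.56 ± 0.28 (SD, n = 3 probe sets). For estradiol minus vehicle CYP1B1 ranked first and CYP1A1 next, and no other was 2-fold higher (1.57% of all genes). CYP1A2 had rank 30 with ERα17p and 26 with estradiol. The median over P450 genes was 0.04 for ERα17p minus vehicle and 0.01 for estradiol minus vehicle, and 0 of the 47 were 2-fold lower in either, beside 1.87% and 1.63% of all genes. As CYP1A1 was chosen by its value on the ERα17p array, the ranks among P450 genes are a description and nothing is read from them.

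**Figure D3:**
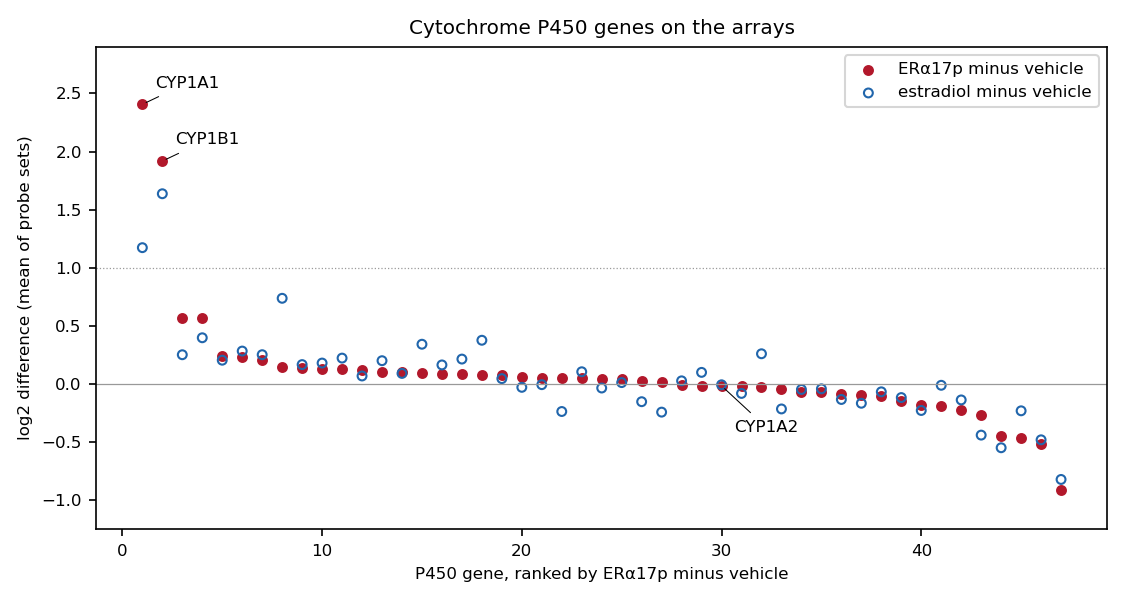
Log2 difference (y axis, mean of the probe sets of a gene) of 47 cytochrome P450 genes ranked by ERα17p minus vehicle (x axis), filled for ERα17p minus vehicle and open for estradiol minus vehicle, 1 array per group. CYP1A1 at 2.41 and CYP1B1 at 1.92 stand above the dotted 2-fold line for ERα17p, and CYP39A1 at 0.56 comes next.

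Genes of the proteins that hold AHR ready or act with it at DNA lay above vehicle for the most part. Of 11 listed chaperones and cofactors 9 were measured, 7 of them above vehicle with ERα17p and 8 with estradiol, with a median of 0.36 for ERα17p minus vehicle and 0.31 for estradiol minus vehicle. Of all genes, 50.1% stood above vehicle with ERα17p and 49.4% with estradiol. With ERα17p 2 of the 9 exceeded vehicle by 1.5-fold or more and 0 were lower (6.88% of all genes were higher and 8.76% lower). With estradiol 0 were higher and 0 lower (6.48% higher and 8.42% lower). CUL4B, a ubiquitin ligase scaffold that AHR can join, differed by 0.64 ± 0.46 with ERα17p and 0.53 ± 0.31 with estradiol (SD, n = 4). The coactivator gene EP300 differed by 0.61 ± 1.07 and 0.37 ± 1.13 (SD, n = 2), within the spread of its probe sets. HSP90AA1, a gene of the chaperone that holds the unliganded receptor, differed by 0.45 ± 0.56 and 0.39 ± 0.63 (SD, n = 4), again within that spread.

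Other bHLH-PAS factors, the family of AHR and ARNT, had medians of 0.05 for ERα17p minus vehicle and 0.08 for estradiol minus vehicle over 13 genes. In both comparisons 1 gene was at least 1.5-fold higher and 0 lower. Of all genes, 6.88% were higher with ERα17p and 6.48% with estradiol, and 8.76% and 8.42% were lower. The higher gene of the list was BMAL1, the clock factor, at 0.82 ± 0.05 with ERα17p and 0.998 ± 0.14 with estradiol (SD, n = 2). EPAS1, a hypoxia factor that pairs with ARNT, stood at 0.58 ± 0.64 and 0.36 ± 0.48 (SD, n = 3).

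Further genes reported to respond to AHR went both ways. Of 18 listed genes 16 were measured, 8 of them above vehicle with ERα17p and 9 with estradiol, and the medians were 0.02 for ERα17p minus vehicle, 0.04 for estradiol minus vehicle and 0.02 for ERα17p minus estradiol. Of all genes, 50.1% stood above vehicle with ERα17p and 49.4% with estradiol. With ERα17p 1 of the 16 was 1.5-fold or more higher and 0 lower, beside 6.88% and 8.76% of all genes. With estradiol 1 was higher and 1 lower, beside 6.48% and 8.42%. NFE2L2, the gene of NRF2, was the higher gene with ERα17p, at 0.69 ± 0.33, against 0.45 ± 0.31 with estradiol (SD, n = 3). STC2, a secreted stanniocalcin, was the higher gene with estradiol, at 1.09 ± 0.47, against 0.39 ± 0.22 with ERα17p (SD, n = 2). HES1, a Notch-responsive repressor, was the lower gene with estradiol, at −0.93 ± 0.52, against −0.39 ± 0.31 with ERα17p (SD, n = 3). For ERα17p minus estradiol 0 were at least 1.5-fold higher and 2 lower, beside 0.521% and 0.607% of all genes. These were STC2 at −0.70 ± 0.25 and the amino acid transporter SLC7A5 at −0.65 (1 probe set). CYP2S1, a P450 that dioxin induces, stood at −0.45 with ERα17p and −0.55 with estradiol relative to vehicle. CDKN1B stood at 0.52 with ERα17p and −0.03 with estradiol, and ABCG2 at −0.52 and −0.16. For ERα17p minus estradiol CDKN1B was at 0.55 and ABCG2 at −0.36. CYP2S1, CDKN1B and ABCG2 were each read by 1 probe set.

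Most of the NRF2 genes, with which NQO1 shares its other regulator, lay below vehicle. Of 27 listed genes 25 were measured, and 7 of these stood above vehicle with ERα17p and 4 with estradiol, NFE2L2 among them in both. Of all genes, 50.1% stood above vehicle with ERα17p and 49.4% with estradiol. The list had medians of −0.28 for ERα17p minus vehicle and −0.28 for estradiol minus vehicle. At least 1.5-fold lower were 8 of 25 with ERα17p, beside 8.76% of all genes, and 5 of 25 with estradiol, beside 8.42%. Higher were 1 with ERα17p and 0 with estradiol, beside 6.88% and 6.48% of all genes. HMOX1, which degrades haem, stood at −1.20 with ERα17p and −1.43 with estradiol, and the epoxide hydrolase EPHX1 at −1.51 and −1.46. OSGIN1, an oxidative stress response gene, stood at −2.29 with ERα17p and −1.34 with estradiol, so that ERα17p minus estradiol was −0.95. Each of these 3 was read by 1 probe set, and NQO1 differed less from vehicle than any of them.

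**Figure D4:**
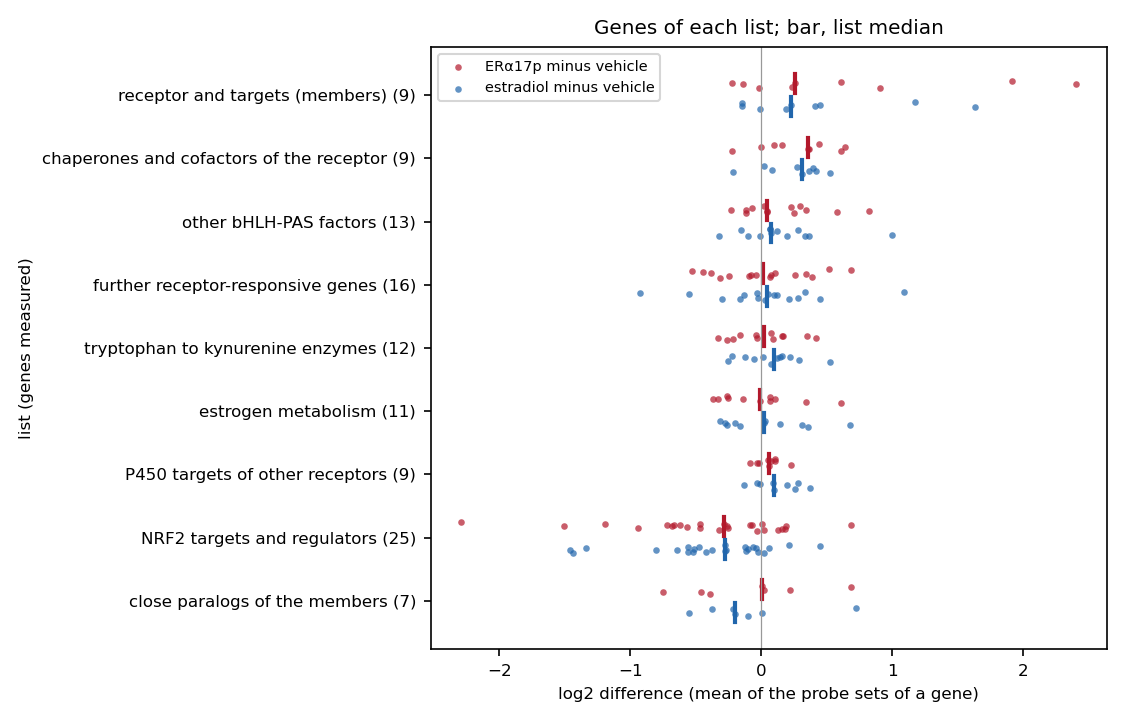
Log2 difference (x axis, mean of the probe sets of a gene) of each measured gene of the 9 members and of 8 other lists (y axis), for ERα17p minus vehicle and estradiol minus vehicle, 1 array per group, with bars at list medians. CYP1A1 and CYP1B1 lie to the right of every other listed gene for ERα17p, and OSGIN1 at −2.29 is the lowest NRF2 gene.

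The genes whose pattern over the 3 arrays came closest to that of CYP1A1 were found by Euclidean distance over the differences of ERα17p and estradiol from vehicle. The closest was FILNC1, a long noncoding RNA, at a distance of 0.45, with differences of 1.97 for ERα17p minus vehicle and 1.07 for estradiol minus vehicle. CRIM1, a membrane protein that binds bone morphogenetic proteins, followed at 0.49, with 2.03 ± 1.09 and 1.49 ± 0.93 (SD, n = 3). FLRT3, an adhesion protein, was at 0.52, with 2.04 ± 0.19 and 0.81 ± 0.34 (SD, n = 2). Its ERα17p minus estradiol difference of 1.23 ± 0.15 was the same as that of CYP1A1 to 2 decimals. LINC01139 and the histone gene H2BC4 were at 0.65 and 0.67.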

How the data were processed

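Total RNA of T47D cells was hybridised to 3 arrays, with groups taken from the labels. Per the submitters' processing notes, RMA produced the deposited log2 values. They were taken as log2 because RMA gives that scale. The labels and files do not state the log base, the software version or the baseline around which the values lie. A difference between arrays is free of the baseline only if it was common to all 3.

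Probe sets were named from the platform annotation. Of 41091 single-gene probe sets, 41037 matched a current gene record by gene number and 0 symbols needed an update. The 1801 probe sets with several genes, none naming a member, and 11721 without a gene name in the annotation were left out. A gene's value was the mean over its probe sets, and an SD is over them. With 1 array per group no test was run, and features were counted by size (2-fold or 1.5-fold). The number of arrays limits the precision.

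The members, lists and rules were chosen with earlier results of these data known. Named genes were all members, for each list up to 3 genes with the greatest absolute difference in a comparison, the 5 genes closest to CYP1A1 and its neighbours among P450 genes. Alternatives were other thresholds, array centring, leaving out probe sets whose identifier ends in _x_at or _s_at, and other summaries of a gene's probe sets. The computations were tested on simulated data. Python 3.11.15, numpy 2.4.6, pandas 2.3.3 and matplotlib 3.10.9 were used.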

Additional observations from a re-analysis of the deposited data

How the results depend on the processing

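No paired analysis was possible because each group had 1 array. Of 99 alternative values of single genes, 95 moved by less than the spread of the gene's probe sets (for a gene with 1 set, by less than the median such spread over genes) and 4 moved further. Many of these could hardly move. CYP1A1, AHR, AHRR, TIPARP and ALDH3A1 have 1 set, not open to cross-hybridisation, so only centring could change their values. The array medians lay between −0.012 and 0.001, so centring shifted every gene only slightly. The 95 are therefore no measure of robustness. Centring each array on its median moved no member count. The 5 probe sets at least 2-fold higher with ERα17p than with vehicle became 1 of the 9 left without sets open to cross-hybridisation, 2 with the gene as the unit by the mean or the median of its sets, and 3 with the set of largest range. The 5 for estradiol minus vehicle became 1, 2 and 3 under the same choices and 3 at 3-fold, and at 1.5-fold 1 set was lower where 0 had been. For ERα17p minus estradiol the 1 set became 0 at 3-fold. Fewer probe sets and fewer genes than sets bring the first of these drops by construction. Leaving out sets open to cross-hybridisation removes every set of CYP1B1, CYP1A2 and NQO1, and 231016_s_at of ARNT. Among the 5, these were 3 sets of CYP1B1 and 231016_s_at. The mean over the ARNT sets left was −0.06 for ERα17p minus vehicle and −0.13 for estradiol minus vehicle. By the set of largest range ARNT stood at 1.499 for ERα17p minus vehicle and 1.34 for estradiol minus vehicle, and for ERα17p minus estradiol CYP1B1 stood at 0.51 and NQO1 at 0.14. Of the other lists, the 4 genes at least 1.5-fold higher with estradiol than with vehicle became 1 without sets open to cross-hybridisation, with 81 in place of 99 genes measured. CYP1A1, with 1 set, has no second measurement on the array. Signal over background is unknown.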

Other observations

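Genes of tryptophan breakdown, mainly by the kynurenine pathway, went both ways. All 12 were measured, 6 of them above vehicle with ERα17p and 8 with estradiol (50.1% and 49.4% of all genes), with medians of 0.02 for ERα17p minus vehicle and 0.10 for estradiol minus vehicle, and 0 were 1.5-fold different in any of the 3 comparisons. Of all genes, 6.88% were higher and 8.76% lower with ERα17p, and 6.48% and 8.42% with estradiol. For ERα17p minus estradiol the shares were 0.521% and 0.607%. KYNU, the kynureninase gene, stood at 0.35 ± 0.31 with ERα17p and 0.14 ± 0.16 with estradiol (SD, n = 4 probe sets). IDO1, which opens the pathway, stood at −0.04 with ERα17p and 0.29 with estradiol. AADAT stood at 0.17 with ERα17p and 0.53 with estradiol, KYAT3 at 0.42 and 0.16, and AFMID at −0.33 and −0.12. IDO1, AADAT, KYAT3 and AFMID were each read by 1 probe set.

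Genes that make, conjugate or clear estrogens went both ways. The 11 measured of 13 listed ranged from −0.36 to 0.61 for ERα17p minus vehicle (median −0.01) and from −0.31 to 0.68 for estradiol minus vehicle (median 0.02). In each comparison 1 was at least 1.5-fold higher and 0 lower. Of all genes, 6.88% were higher with ERα17p and 6.48% with estradiol, and 8.76% and 8.42% were lower. With ERα17p the higher gene of the list was HSD17B4, which oxidises estradiol, at 0.61 ± 0.27, against 0.36 ± 0.37 with estradiol (SD, n = 2). With estradiol it was STS, the steroid sulfatase, at 0.68 ± 0.41, against 0.34 ± 0.49 with ERα17p (SD, n = 4).

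P450 genes that serve as targets of other ligand-activated receptors were within 1.5-fold of vehicle in both treatments, for all 9 measured of 11 listed. Of all genes, 6.88% were at least 1.5-fold higher with ERα17p and 8.76% lower, and 6.48% and 8.42% with estradiol. CYP24A1, the vitamin D target, stood at −0.03 with ERα17p and 0.26 with estradiol, and CYP26B1, a retinoic acid hydroxylase, at 0.07 ± 0.19 and 0.38 ± 0.17 (SD, n = 2). Of 7 close paralogs of the members, ALDH3A2 alone was at least 1.5-fold higher in both treatments, beside the same shares of all genes. It stood at 0.68 ± 0.41 with ERα17p and 0.72 ± 0.50 with estradiol (SD, n = 3). PARP12, a relative of TIPARP, stood at −0.75 with ERα17p and −0.38 with estradiol, and NQO2 at −0.46 ± 0.21 and −0.55 ± 0.11 (SD, n = 2).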
